A study of Mus musculus with 10 samples.

Results

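The transcripts described here encode the axon guidance families of the ephrins and Eph receptors, the semaphorins with their plexin and neuropilin receptors, and the netrin and Slit systems. They were chosen by gene symbol among the probe sets of the array with 1 annotated symbol, and each gene was read from its probe set with the highest mean over all 10 arrays. The rule matched 45 of 8251 genes. One match, Unc50, shares only letters with the Unc5 netrin receptors and was left out, so that 44 guidance genes on 57 probe sets remained. They were 5 ephrin-A and 3 ephrin-B ligands, 7 EphA and 2 EphB receptors, 5 class 3 and 11 other semaphorins, 5 plexins, Nrp1, Ntn1, Dcc and Unc5c, and 2 Robo receptors. Slit genes, Nrp2 and the remaining members of these families were not analysed here.

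The tissue was the visual cortex of wild-type C57Bl6 mice that had 1 eye removed at postnatal day 14 and were killed at postnatal day 18, 4 days later. Visual cortex contralateral to the lost eye gave the 5 deprived samples, and the side ipsilateral to it gave the 5 non-deprived ones. Samples were pooled, per the labels, which name 4 mice without dividing them over the samples, so the tests measure the spread between these samples, which may be partly technical. Every sample came from an operated mouse, which leaves no intact control.

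Guidance molecules steer growing axons by attraction and repulsion, and many remain in use in the postnatal cortex, where they act on dendrites, spines and synapses. Ephrin-A ligands are tethered by a lipid anchor and mainly bind EphA receptors, whereas ephrin-B ligands cross the membrane and mainly bind EphB receptors. Graded ephrin-A and EphA levels order the map of the retina in its target areas. Class 3 semaphorins are secreted and, for the most part, act through a neuropilin that binds them and a plexin A that signals. The other vertebrate semaphorins are mostly membrane-bound and bind plexins directly. Netrin-1 attracts through Dcc and repels through Unc5 receptors, and Slits repel through Robo receptors.

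No guidance gene passed the test of deprived against non-deprived cortex after adjustment over all 7453 tested probe sets. Signals are MAS5 intensities, linear and in arbitrary units, and their trimmed mean was the same on every array. Of the 44 genes, 31 lay above the signal filter and were tested on log2(signal + 16) with limma, a moderated linear model. The other 13 lay below it, where the mean log2 value over 10 arrays was in the lowest 40% of probe sets. The smallest Benjamini-Hochberg adjusted p in limma among the 31 was 0.992, and 0 passed 0.05, which was also the case for 0.0% of all tested probe sets. At an unadjusted p under 0.05, limma gave 2 guidance genes, the plexin Plxna3 and the ephrin receptor Epha7, both with higher means in deprived cortex. The share among all tested probe sets was 4.79% in either direction, with 2.43% higher and 2.36% lower in deprived cortex. Log2 differences, deprived minus non-deprived, ranged from -0.21 (Sema3e) to 0.34 (Plxna3) with a median of 0.052, against a median of 0.0066 over all tested probe sets. They were above 0 for 20 of the 31 genes, against 52.0% of all tested probe sets. With arrays scaled to a common median they were above 0 for 18 of the 31 genes, against 41.7% of all tested probe sets. In bulk tissue, fewer cells of a type and less RNA per cell cannot be told apart.

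The arrays nevertheless bounded most differences of tested genes, relative to the spread between these samples, which may be partly technical. The 95% interval lay within a 1.5-fold change either way for 27 of the 31 genes, against 85.8% of all tested probe sets. The 4 exceptions were Sema4d, Sema5b, Sema6c and Robo1, with the highest upper bound at 1.66-fold for Sema4d and the lowest lower bound at 0.654-fold for Sema5b. The 16 tested ligand genes had a median log2 difference of 0.048 with 10 above 0, and the 15 tested receptor genes had one of 0.053 with 10 above 0. Within a group, the coefficient of variation of a tested guidance gene ranged from 4.51% to 38.8% over deprived arrays and from 2.49% to 37.9% over non-deprived arrays.

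**Figure D1:**
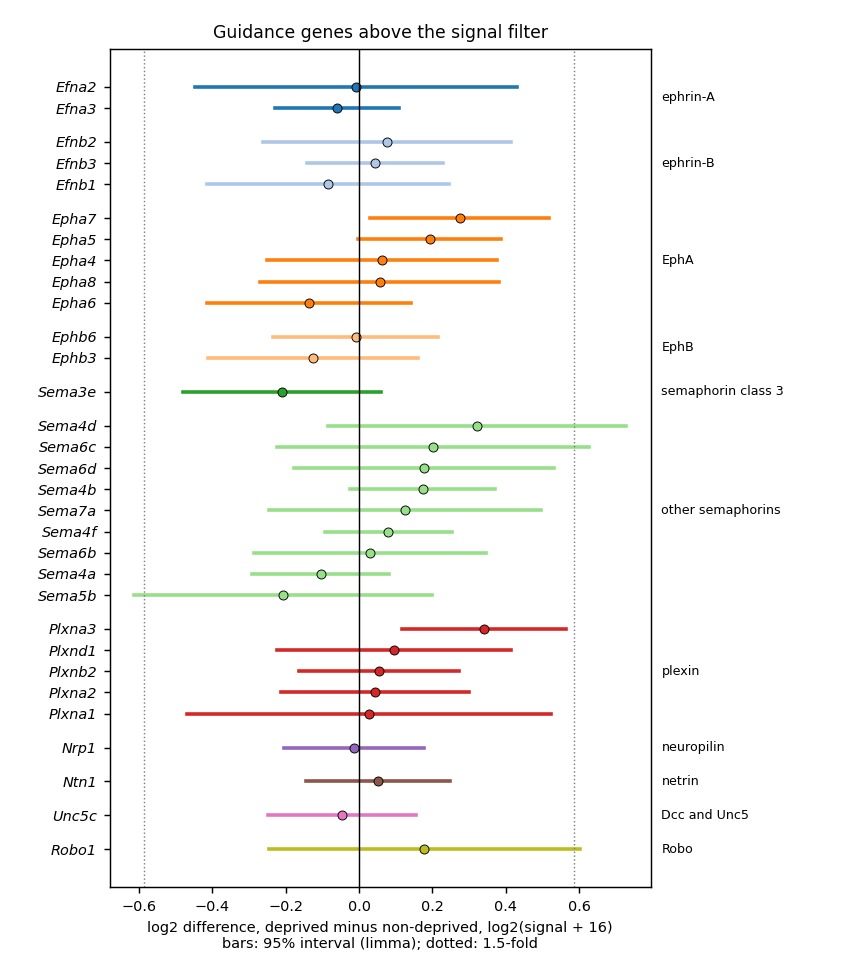
Log2 difference, deprived minus non-deprived, of each tested guidance gene (points) with its 95% interval (bars), grouped by family. Plxna3 at 0.34 and Epha7 at 0.27 have intervals that exclude 0, and the intervals of 27 of 31 genes lie between the dotted lines that mark a 1.5-fold change.

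**Figure D2:**
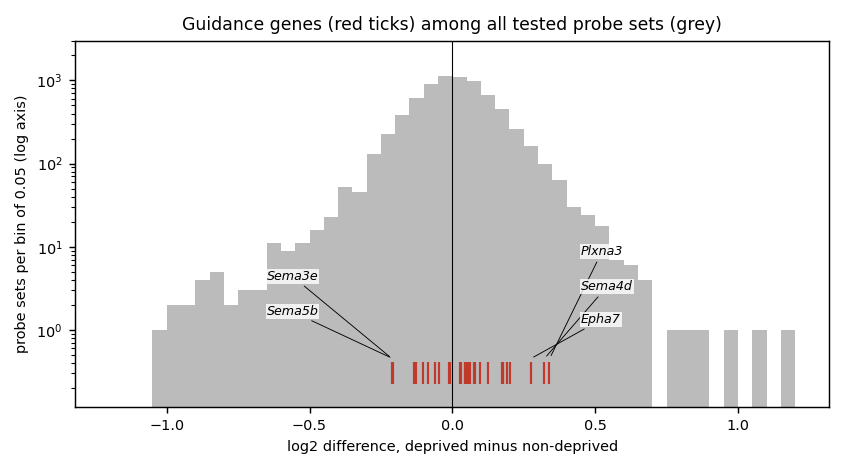
Log2 differences of the 7453 tested probe sets (grey histogram, log axis) and of the 31 tested guidance genes (red ticks). The guidance genes lie between -0.21 and 0.34, inside a background that reaches 1.16, and their median of 0.052 is close to the background's 0.0066.

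The tested ephrin-A ligands, Efna2 and Efna3, had log2 differences near 0 with intervals that included 0. Efna3 had signals of 1926, 1710.4, 1683, 1922 and 1812 in deprived cortex, against 1941, 1670.2, 2018, 1946 and 1875 in non-deprived cortex. The 2 groups overlapped over most of their range, with a log2 difference of -0.061 ± 0.079 (SE) and a 95% interval of -0.23 to 0.11. Efna2 had signals of 241, 319, 225, 192 and 353 in deprived cortex, against 221, 262, 172, 347 and 351 in non-deprived cortex. Both groups held arrays near the bottom and near the top of the range, so that its log2 difference of -0.0090 ± 0.20 (SE) came with a wider interval of -0.45 to 0.43. The other 3 ephrin-A genes, Efna1, Efna4 and Efna5, lay below the filter.

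All 3 ephrin-B ligands were tested, and their log2 differences had both signs. Efnb1 had signals of 168, 206, 187, 204 and 264 in deprived cortex, against 181, 223, 273, 178 and 243 in non-deprived cortex, with a log2 difference of -0.085 ± 0.15 (SE). The ranges overlapped almost fully. Efnb3 had signals of 1577, 1381, 1586, 1540.3 and 1465 in deprived cortex, against 1427, 1725, 1317, 1386 and 1486 in non-deprived cortex, with a log2 difference of 0.044 ± 0.086 (SE). The highest and the lowest Efnb3 signal both came from non-deprived arrays. Efnb2, which also takes part in vessel formation, had means of 1588 ± 222 in deprived and 1531 ± 360.3 in non-deprived cortex (SD, n = 5 each) and a log2 difference of 0.076 ± 0.16 (SE).

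Among EphA receptors, Epha7 and Epha5 had the smallest p. Both are receptor tyrosine kinases for ephrin-A ligands, and EphA7 takes part in ordering the connections between thalamus and cortex. Epha7 had signals of 513, 513, 595, 573 and 460.4 in deprived cortex, against 353, 424, 458, 431 and 523 in non-deprived cortex. In non-deprived cortex 4 arrays lay below all 5 deprived arrays, while replicate 5 exceeded 3 deprived arrays, so the groups overlapped. The means were 531 ± 53.7 in deprived and 438 ± 61.3 in non-deprived cortex (SD, n = 5 each), with a log2 difference of 0.27 ± 0.11 (SE), an interval of 0.031 to 0.52 and an unadjusted limma p of 0.0298. The adjusted limma p was 0.992. The unadjusted p stayed under 0.05 in 6 of 10 single-array omissions and ranged up to 0.0895, without non-deprived replicate 1. Under median scaling it was 0.0654. The second Epha7 probe set lay below the filter and had the opposite sign, with means of 13.6 in deprived and 24.5 in non-deprived cortex and a log2 difference of -0.40.

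Epha5 had signals of 587, 619, 617, 554 and 545 in deprived cortex, against 590.3, 494, 491, 467 and 509 in non-deprived cortex. Non-deprived replicate 1 lay among the deprived arrays and the other 4 lay below all of them. The log2 difference was 0.19 ± 0.090 (SE) with an interval of -0.0023 to 0.39 and an unadjusted limma p of 0.0524. Without non-deprived replicate 1 it was 0.24, with an unadjusted limma p of 0.0197 and an adjusted limma p of 0.972. Without non-deprived replicate 4 it was 0.16, with an unadjusted limma p of 0.117. The other tested EphA genes were Epha4, which binds ephrins of both classes, at 0.062 ± 0.15 (SE), Epha8 at 0.056 ± 0.15 (SE) and Epha6 at -0.14 ± 0.13 (SE). Over the 5 tested EphA genes, 4 log2 differences were above 0 and the median was 0.062. The median depended on which genes were tested: with probe sets of a gene averaged, Epha7 lay below the filter and the other 4 had a median of -0.010, and a filter at the 60th percentile left 3 (Epha4, Epha5 and Epha7) with a median of 0.19.

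Both EphB receptors had log2 differences below 0. Ephb3 had signals of 385, 269.5, 382, 368 and 298 in deprived cortex, against 396, 287, 413, 408 and 359.8 in non-deprived cortex, with a log2 difference of -0.13 ± 0.13 (SE). Its deprived replicate 2 gave the lowest signal, and the other 4 deprived arrays lay within the non-deprived range. Ephb6, a family member that lacks kinase activity, had signals of 2118, 1871, 2486, 1719 and 2093 in deprived cortex, against 2097, 2219, 2258, 1979 and 1764 in non-deprived cortex. The highest and the lowest signal both came from deprived arrays, and the log2 difference was -0.0096 ± 0.10 (SE). Its second tested probe set, of relaxed design rules, gave 0.16 ± 0.14 (SE).

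**Figure D3:**
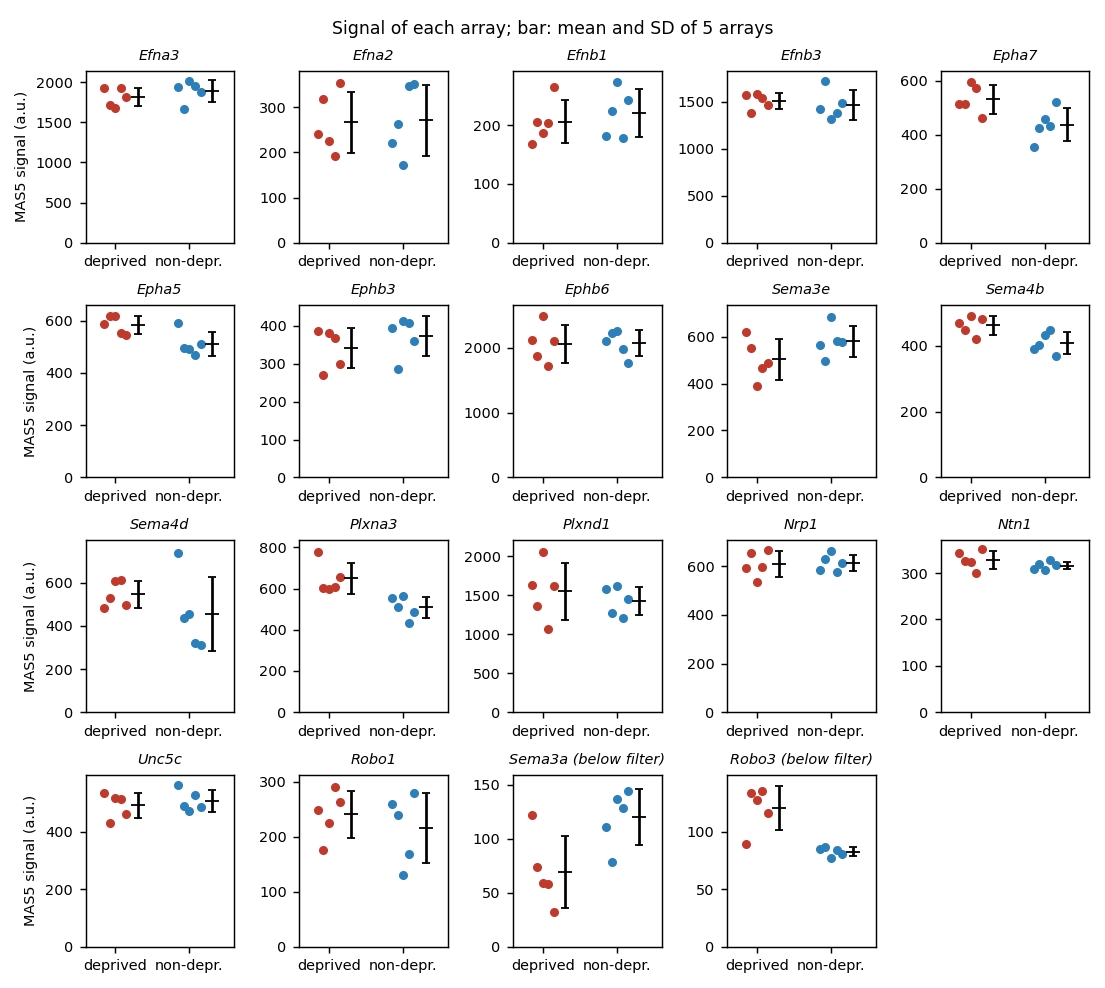
MAS5 signal of each of the 5 deprived (red, left) and 5 non-deprived (blue, right) arrays for the 17 tested genes named with array values and for Sema3a and Robo3, which lie below the filter; black bars give the mean and SD. Plxna3 and Robo3 are the genes shown whose 2 groups do not overlap.

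Among semaphorins, the tested class 3 member was Sema3e, which is unusual in its class because it can bind plexin D1 without a neuropilin. Sema3e had signals of 622, 552, 388, 466 and 486 in deprived cortex, against 563, 497, 684, 581 and 575 in non-deprived cortex. Deprived replicates 3, 4 and 5 lay below every non-deprived array, while deprived replicate 1 lay above 4 of them. The means were 503 ± 88.6 in deprived and 580.0 ± 66.9 in non-deprived cortex (SD, n = 5 each), with a log2 difference of -0.21 ± 0.13 (SE) and an interval of -0.48 to 0.059. The unadjusted limma p was 0.117. It was 0.0343 without deprived replicate 1 and 0.308 without deprived replicate 3, where the log2 difference was -0.12. Over all settings and omissions the smallest adjusted limma p of Sema3e was 0.806. Its receptor gene Plxnd1 had signals of 1632, 1363, 2052, 1071 and 1621 in deprived cortex, against 1576, 1276, 1619.8, 1202 and 1447 in non-deprived cortex. Deprived arrays held both the highest and the lowest Plxnd1 signal, and the log2 difference of 0.096 ± 0.15 (SE) was -0.013 without deprived replicate 3.

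Of the 9 tested semaphorins outside class 3, 7 had log2 differences above 0 (6 under median scaling), with a median of 0.12. None passed the adjusted threshold and 0 had an unadjusted limma p under 0.05, against 4.79% of all tested probe sets. Sema4b, a transmembrane semaphorin, had signals of 471, 449, 492, 420.3 and 482 in deprived cortex, against 391, 404, 434, 449 and 369 in non-deprived cortex. Deprived replicate 4 lay within the upper non-deprived range, and the other 4 deprived arrays lay above it, replicate 2 by less than 1 unit. Its log2 difference was 0.17 ± 0.092 (SE), with an unadjusted limma p of 0.0809. Its other tested probe set, which reads a sequence family, gave 0.046 ± 0.14 (SE).

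Sema4d, a semaphorin of oligodendrocytes and immune cells that binds B-type plexins, had signals of 481, 531, 607, 613 and 499 in deprived cortex, against 739, 439, 454, 322 and 314 in non-deprived cortex. In non-deprived cortex, 4 arrays lay below all 5 deprived arrays, and replicate 1 lay above all of them. The log2 difference was 0.32 ± 0.19 (SE) with an interval of -0.084 to 0.73. Without non-deprived replicate 1 it was 0.51, with an unadjusted limma p of 0.00256 and an adjusted limma p of 0.866. Without non-deprived replicate 5 it was 0.21, with an unadjusted limma p of 0.278. The summed signal of 7 oligodendrocyte markers ranged from 20550.2 to 27106 in deprived and from 18722 to 26602 in non-deprived arrays. The 6 that were tested had a median log2 difference of 0.16. Of them, 0 had an unadjusted limma p under 0.05, against 4.79% of all tested probe sets. Mbp, which gave the largest part of the sum, had -0.057. The other tested markers lay between 0.14 (Mobp) and 0.29 (Mag). The 8 tested microglia markers had a median log2 difference of 0.12, from -0.092 (C1qb) to 0.29 (Cd53). The part of either cell type in the Sema4d values was not tested.

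The remaining semaphorins outside class 3 lay between -0.21 (Sema5b) and 0.20 (Sema6c). Sema7a, a lipid-anchored semaphorin that acts through integrins and plexin C1, had means of 1562 ± 223 in deprived and 1474 ± 499 in non-deprived cortex (SD, n = 5 each) and a log2 difference of 0.12 ± 0.17 (SE). Without non-deprived replicate 3, the highest of all 10 arrays, it was 0.30, with an unadjusted limma p of 0.0204 and an adjusted limma p of 1.00; without non-deprived replicate 1 it was 0.028. The second tested Sema7a probe set gave 0.0034 ± 0.23 (SE). Sema6b, Sema6c and Sema6d, transmembrane semaphorins whose class binds plexin A receptors, had log2 differences of 0.031 ± 0.15 (SE), 0.20 ± 0.20 (SE) and 0.18 ± 0.17 (SE). Sema4f had one of 0.080 ± 0.080 (SE) and Sema4a one of -0.10 ± 0.087 (SE), while Sema5b, at -0.21 ± 0.19 (SE), held 1 low deprived array, without which it was 0.0010.

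Plxna3, a plexin A that signals for class 3 semaphorins together with neuropilins, had the smallest p of the guidance genes. Its signals were 779, 603, 599, 608 and 655 in deprived cortex, against 552, 510.2, 563, 435 and 484 in non-deprived cortex. All 5 deprived arrays lay above all 5 non-deprived arrays. It was the 1 gene of the 31 tested whose groups did not overlap, and 0.953% of all tested probe sets did not overlap in either direction, 0.483% with higher and 0.47% with lower signals in deprived cortex. The means were 649 ± 76.2 in deprived and 509 ± 52.3 in non-deprived cortex (SD, n = 5 each), which is 1.27-fold on the fitted log2(signal + 16) scale, with a log2 difference of 0.34 ± 0.10 (SE) and an interval of 0.12 to 0.56. The unadjusted limma p was 0.00571 and the adjusted limma p was 0.992, so that the difference did not pass over all probe sets. In the 10 single-array omissions the log2 difference ranged from 0.27 to 0.38 and the unadjusted p stayed under 0.05 in each. The array held 1 probe set for Plxna3, which leaves no second reading.

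The other plexins had log2 differences just above 0: Plxna1 0.028 ± 0.23 (SE), Plxna2 0.044 ± 0.12 (SE) and Plxnb2 0.053 ± 0.10 (SE). The second tested Plxnb2 probe set gave 0.055 ± 0.18 (SE). Over the 5 plexins the median was 0.053, and 5 estimates were above 0, or 4 under median scaling. With 1 array left out, the estimates of Plxna1, Plxna2 and Plxnd1 took either sign. Nrp1, the co-receptor for Sema3a that also binds vascular endothelial growth factor, had signals of 593, 653, 535, 597 and 668 in deprived cortex, against 585, 629.7, 663, 578 and 614 in non-deprived cortex. Non-deprived arrays lay inside the deprived range. The log2 difference was -0.013 ± 0.089 (SE) with an interval of -0.20 to 0.18, and the second tested Nrp1 probe set gave -0.18 ± 0.16 (SE).

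The regions upstream of the start sites of Plxna3 and Epha7, the 2 genes with an unadjusted p under 0.05, are given with that of 1 start site of Sema4d, as RefSeq gives them on GRCm38.p6. Each holds the 250 bases before the annotated start, 5′ to 3′ on the strand of the gene. Capitals mark matches to the loose AP-1 pattern TGANTCA (N is any base) and the serum response element, in this order, upstream of Sema4d.
Plxna3, chrX:74328816-74329065, plus strand: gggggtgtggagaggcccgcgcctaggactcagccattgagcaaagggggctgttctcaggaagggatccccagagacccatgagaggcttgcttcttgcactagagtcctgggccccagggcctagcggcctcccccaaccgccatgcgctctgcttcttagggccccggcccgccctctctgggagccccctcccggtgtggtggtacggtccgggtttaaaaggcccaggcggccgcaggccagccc
Epha7, chr4:28812881-28813130, plus strand: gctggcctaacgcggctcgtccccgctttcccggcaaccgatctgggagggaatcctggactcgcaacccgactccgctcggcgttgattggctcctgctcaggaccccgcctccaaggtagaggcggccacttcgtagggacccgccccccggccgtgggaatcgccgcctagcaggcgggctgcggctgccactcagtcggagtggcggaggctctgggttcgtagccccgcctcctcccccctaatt
Sema4d, chr13:51748811-51749060, minus strand: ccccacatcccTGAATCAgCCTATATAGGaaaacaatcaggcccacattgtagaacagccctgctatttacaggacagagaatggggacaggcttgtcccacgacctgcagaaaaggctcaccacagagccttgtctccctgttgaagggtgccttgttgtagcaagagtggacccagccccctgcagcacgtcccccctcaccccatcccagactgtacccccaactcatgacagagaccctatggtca

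RefSeq windows of 300 bases, from 250 before to 50 after a start, were at hand for 37 of the 44 guidance genes, 50 windows in all. They had a median GC content of 63.8%, against 52.7% over all 32851 windows. The windows were searched on both strands for motifs of factors that neuronal activity regulates. The cAMP response element TGACGTCA was in 1 guidance window (Epha2), or 2%, against 1.79% of all windows. The loose AP-1 pattern TGANTCA, with any base at N, was in 2 (Sema4d and Sema6b), or 4%, against 7.81%. The Sema4d match reads TGAATCA. The Egr motif GCGTGGGCG was in 2 (Efna3 and Plxna2), or 4%, against 0.612% of all windows, and the serum response element was in 2 (Robo1 and Sema4d), or 4%, against 1.63%. The windows of Plxna3 and Epha7 held none of the 4, nor did those of the other Sema4d start sites. No motif of the 4 can lie within another, and a match or its absence is a description of the window alone.

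In the netrin system, Ntn1, the secreted ligand, had signals of 343, 326, 324, 299.7 and 351 in deprived cortex, against 309.6, 319, 308, 327 and 318 in non-deprived cortex. Non-deprived arrays lay inside the deprived range. Its log2 difference was 0.052 ± 0.091 (SE) with an interval of -0.14 to 0.25. Unc5c, a repulsive netrin receptor, had signals of 535, 430.2, 515, 515 and 462 in deprived cortex, against 563, 490.4, 471, 528 and 484 in non-deprived cortex, with a log2 difference of -0.046 ± 0.094 (SE). The Unc5c ranges overlapped. Dcc, the attractive receptor, lay below the filter at means of 40.8 ± 21.2 in deprived and 31.9 ± 8.5 in non-deprived cortex (SD, n = 5 each). Unc50, the match by letters that is no netrin receptor, had a log2 difference of -0.0060 ± 0.098 (SE).

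Robo1, a receptor for Slits, had signals of 248, 176, 225, 290.1 and 263 in deprived cortex, against 259.5, 240.4, 130.2, 169 and 279 in non-deprived cortex. Non-deprived replicates 3 and 4 lay below all deprived arrays, and the other 3 non-deprived arrays lay within the deprived range. The log2 difference was 0.18 ± 0.20 (SE) with an interval of -0.25 to 0.60 It ranged from 0.023, without non-deprived replicate 3, to 0.28, without deprived replicate 2. Robo3, a divergent family member known from commissural axons, lay just below the filter, with signals of 89.2, 134, 128, 135 and 117 in deprived cortex, against 84.9, 86.6, 77.3, 84.5 and 80.3 in non-deprived cortex. All deprived arrays lay above all non-deprived ones. Its log2 difference of 0.46 was not in the main test; in the limma fit with no filter it had an unadjusted p of 0.0155 and an adjusted p of 0.959, against 5.03% of 12422 probe sets at an unadjusted p under 0.05.

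The 13 genes below the filter had group means between 19.1 and 120.5, and 9 had log2 differences above 0. Sema3a, a secreted repellent that also binds the perineuronal nets of interneurons, had signals of 122, 73.6, 59.5, 57.7 and 31.8 in deprived cortex, against 111, 78.8, 137, 129 and 144 in non-deprived cortex. Deprived replicates 2, 3, 4 and 5 lay below all non-deprived arrays, while deprived replicate 1 lay among them. The means were 68.9 ± 33.3 in deprived and 120.0 ± 26.1 in non-deprived cortex (SD, n = 5 each), and the log2 difference of -0.74 had an unadjusted p of 0.0152 and an adjusted p of 0.959 in the limma fit with no filter. Sema3a and Robo3 were the 2 of these 13 genes with an unadjusted p under 0.05 in that fit. No detection calls were used, so these low signals were not set against background.

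The other 11 genes below the filter had unadjusted p over 0.05 in the limma fit with no filter, where standard errors reached 0.41. These differences were 0.42 for Efna1, 0.35 for Efna5 and -0.013 for Efna4 among ephrin-A ligands, and 0.061 for Epha2 and 0.057 for Epha3 among their receptors. Among class 3 semaphorins they were 0.42 for Sema3f, 0.29 for Sema3c and -0.00042 for Sema3b. The transmembrane Sema5a and Sema6a had 0.086 and -0.11, and Dcc had 0.18. Of these 13 genes, Robo3 was the 1 whose groups did not overlap, against 1.01% of the 12422 probe sets without the filter.

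For 12 guidance genes the array held more than 1 probe set, which gave 13 further readings. Among the 6 that lay above the filter, 5 had the sign of the brightest probe set, and the exception was Ephb6. Among the 7 below it, 3 had the same sign and 4 the opposite one (Epha4, Epha7, Sema3b and Sema4a). With the probe sets of each gene averaged, 29 guidance genes lay above the filter, without Epha7 and Ntn1. Plxna3 was the 1 among them with an unadjusted limma p under 0.05, against 4.88% of all 5904 entries tested that way. These entries were genes and, where a probe set did not have 1 symbol, single probe sets.

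**Figure D4:**
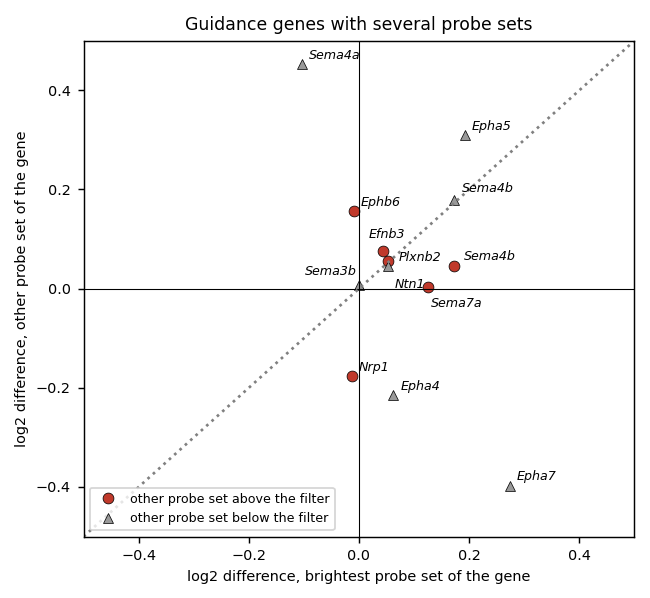
Log2 difference, deprived minus non-deprived, of the brightest probe set of a gene (horizontal) against its other probe sets (vertical) for 12 guidance genes; the dotted line marks equality. Red points, where both readings lie above the signal filter, lie between -0.18 and 0.17 on both axes, and the grey triangles of dim probe sets scatter between -0.40 and 0.45.

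Guidance receptors act on the cytoskeleton through kinases, small GTPases and their regulators, and a list of 61 such partners and effectors was drawn up from general knowledge. It had 42 genes with a probe set and 37 above the filter. None passed the adjusted threshold (0 of 37, smallest adjusted limma p 0.992). At an unadjusted limma p under 0.05 there were 0 higher and 2 lower genes, against 2.43% higher and 2.36% lower of all tested probe sets. The median log2 difference of the list was 0.021, with 20 above 0 and 17 below. Its sign was not stable: the median was -0.013 under median scaling and -0.029 to 0.053 with 1 array left out, lowest without deprived replicate 4. Ablim1, an actin-binding LIM protein, had signals of 735, 523, 613, 628 and 549 in deprived cortex, against 657, 742, 814, 696 and 732 in non-deprived cortex, with a log2 difference of -0.26 ± 0.10 (SE) and an unadjusted limma p of 0.0265. Rhoa, the GTPase that mediates growth cone collapse, had signals of 1489.6, 1761, 1468, 1095 and 1177 in deprived cortex, against 1600, 1869, 1619.7, 1876 and 1501 in non-deprived cortex, with a log2 difference of -0.29 ± 0.12 (SE) and an unadjusted limma p of 0.0351. The groups of both genes overlapped.

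The other 2 effectors with the smallest p had higher means in deprived cortex. Pak3, a kinase that Rac and Cdc42 activate, had signals of 307, 284, 291, 306 and 273 in deprived cortex, against 256, 272, 247, 247 and 232 in non-deprived cortex. Its groups did not overlap, as in 0.953% of all tested probe sets. Its log2 difference was 0.21 ± 0.098 (SE) with an unadjusted limma p of 0.053. Dpysl2, which encodes a collapsin response mediator of Sema3a signalling, had means of 445 ± 46.2 in deprived and 389 ± 31.6 in non-deprived cortex (SD, n = 5 each) and a log2 difference of 0.19 ± 0.10 (SE).

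Over the whole arrays, median signals lay between 191 and 209 units. Pearson's r over tested probe sets, which are not independent, was 0.957 to 0.979 between arrays of 1 group and 0.954 to 0.978 between arrays of different groups. The cortical markers Tbr1 and Nrgn and the interneuron marker Gad1 had mean signals of 6307, 5750.1 and 4653 in deprived cortex. In non-deprived cortex they had 6334, 5610 and 4760.4. Other members of these lists were dimmer, down to Neurod6 at 369 and 295 and Gad2 at 142 and 145. Of 7 measured markers of thalamus, striatum or hippocampus, 6 lay above the filter. Among them, Penk had means of 1204 in deprived and 1141 in non-deprived cortex. Of 8 marker lists for neurons, glia, vessels, neighbouring regions and blood, none had a gene past the adjusted threshold, and their median log2 differences lay between -0.019 and 0.16. The 1 marker gene with an unadjusted limma p under 0.05 was Slc1a2, the astrocyte glutamate transporter, against 4.79% of all tested probe sets. Its means were 312 ± 45.5 in deprived and 236 ± 43.4 in non-deprived cortex (SD, n = 5 each). The 7 tested astrocyte markers had a median log2 difference of 0.011. The exact two-sided permutation test over 5 against 5 arrays gave p = 0.294 for the median signal, 0.381 for the share of probe sets under 16, 0.96 for the beta-actin and 0.405 for the Gapdh ratio of 3′ to 5′ signal, with the smallest Benjamini-Hochberg adjusted exact p at 0.54 over the 4 measures. No batch or scan date is stated.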

How the data were processed

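RNA of 5 deprived and 5 non-deprived visual cortex samples was measured on 1 Affymetrix array each. The deposited values are MAS5 signal intensities on a linear scale, per the submitters' processing notes and the labels; the version and target of MAS5 are not given in these sources. On each array the mean was 500 once 2% of probe sets at either end were dropped, as scaling before deposit would leave it, though no source states that step, so differences are relative to the array average. Intensities ran from 0 to 36786; arrays carry no read depth, and the precision rests on how many there are.

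Of 12488 probe sets, 66 controls were dropped. The platform annotation, with Entrez IDs used to update symbols, gave 10833 of the 12422 others 1 gene symbol, 396 several and 1193 none. No genome build belongs to the values. Intensities were converted to log2(value + 16), near the 10th percentile of all values (15.6). Fold changes on this scale understate those of dim probe sets. Probe sets whose mean log2 value lay below the 40th percentile (a signal of 115) were left out. Deprived minus non-deprived was fitted with limma 3.58.1 (R 4.3.3; lmFit, eBayes with an intensity trend) with no covariate, adjusted with Benjamini-Hochberg over all 7453 probe sets at 0.05. Adjusted and unadjusted p-values in the text are from this limma fit unless another is named.

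Limma was tested on independent normal values with each probe set's mean and within-group spread (7453 probe sets, 10 runs, 200 changed 1.5- to 4-fold in each). It recovered 67.4% of the 1.5-fold and 93.4% of the 2-fold changes, and 4.97% of calls were false. These draws held no shared array effects or outlying arrays, and many planted changes ease the adjusted threshold. Recovery of a few changed genes in the real arrays was not measured. Named with values are, in each family, the 2 tested genes with the smallest p and any with an unadjusted p under 0.05, and, from the effector list, the 4 tested genes with the smallest p. Sema3a, Robo3 and the motifs were chosen after values were seen, and the members, lists and tests with earlier results of these data known. Alternatives were the scaling, pseudocount, filter, probe set rule, trend, replicate number as a block, and omission of each array.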

Additional observations from a re-analysis of the deposited data

Results flagged for a closer look

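In 4 of the 88 groups of 5 arrays examined (44 guidance genes in 2 groups, log2 scale), 1 array lay far from the other 4 by Dixon's criterion (a gap over 0.71 of the range), and chance gives about 1 group in 20. Sema5b had a signal of 167 in deprived replicate 2, against 333 to 398 in the other deprived arrays. Sema7a had 2348 in non-deprived replicate 3, against 1082 to 1343 in the other non-deprived arrays. Sema6a, below the signal filter, had 239 in the same array, against 45.1 to 57.2. Sema3c, also below the filter, had 65.2 in non-deprived replicate 5, against 11.4 to 14.9.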

How the results depend on the processing

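The count of guidance genes past an adjusted limma p of 0.05 was 0 under all 10 other settings and all 10 single-array omissions. Over all probe sets that count was 0 with the main settings, 2 under either a pseudocount of 64 or the stricter filter (60th percentile), 6 with the replicate block, 5 without non-deprived replicate 1 and 1 without deprived replicate 4. At an unadjusted p under 0.05, the 2 higher genes became 1 (Plxna3) with median scaling, where Epha7 had 0.0654, and 1 (Plxna3) with probe sets of a gene averaged, where Epha7 lay below the filter and was not tested; there were 4 with no filter (also Epha5 and Robo3), which also gave 1 lower gene (Sema3a); with 1 array left out there were 1 (without deprived replicate 3 or non-deprived replicate 2) to 3 higher and 0 to 1 lower (Sema3e, without deprived replicate 1). The EphA median of 0.062 over 5 genes was -0.010 over 4 with probe sets averaged (without Epha7), 0.19 over 3 with the stricter filter (Epha4, Epha5 and Epha7), and 0.036 to 0.17 with 1 array left out (0.17 without deprived replicate 2). Signs reversed for Ephb6 (0.073 with probe sets averaged; -0.080 to 0.052 with 1 array left out) and, with 1 array left out, for Efna2 (-0.15 to 0.092), Nrp1 (-0.047 to 0.031) and Plxnd1 (-0.013 to 0.22); the cause was not tested. In all, 11 of the 31 genes took both signs with 1 array left out, the others being Efnb2, Epha4, Epha8, Plxna1, Plxna2, Sema5b and Sema6b. The median over all tested guidance genes ranged from 0.019 to 0.077 over all settings and omissions, and inclusion of Unc50, added after the data were seen, left the counts as they were.

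Same-numbered deprived and non-deprived arrays had deviations that correlated at 0.02 to 0.23, 1 of the 5 pairs being under 0.1, and 4 of 5 deprived arrays matched their own number best. The labels do not say that the numbers mark shared animals, so the pairing was not used. With the replicate block, the unadjusted limma p was 0.00485 for Plxna3 and 0.0366 for Epha7, with 2 higher and 0 lower guidance genes at an unadjusted p under 0.05. Genes with signals near the filter, such as Sema3a and Robo3, are limited by the lack of detection calls.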
